A study of Drosophila melanogaster with 3 samples.

Results

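The genes described here are 10 members of the epidermal growth factor receptor (EGFR) pathway of Drosophila melanogaster: the ligands spi, vn and Krn, the ligand-processing genes rho and S, the receptor Egfr, the inhibitors aos, kek1 and sty, and the transcription factor gene pnt. They are 10 of 13945 protein-coding genes on the 6 main chromosome arms. The members were chosen by name with earlier measured values of these peak lists known, among them summit positions and signals, so the counts below describe them and carry no test. For each gene, every peak summit from 5 kb upstream of its first transcription start site (TSS) to its annotated end was collected, and that stretch is called its region. The regions held 47 of the 7896 summits of the thresholded list.

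The lists come from chromatin immunoprecipitation followed by sequencing (ChIP-seq) on whole embryos of pooled sexes, aged 0 to 24 h. The line carries a transgene for CG9727 with GFP at its C-terminus, and the sample descriptions name an antibody against GFP for the precipitation. The 3 biological replicates form 1 group. Separate embryo collections are not stated for them, so their spread may be technical. The antibody field of the labels instead names CG9727, so it is uncertain whether native protein was also precipitated. A control enters only through the authors' lists, its nature was not determined here, and whole embryos mix all tissues and stages of that day. Each replicate has a relaxed list of 30000 peaks, as has the pool of all 3. The list thresholded by the irreproducible discovery rate (IDR) is identical to the 7896 strongest peaks of the pooled list, down to a signal of 158. Signal is the authors' own peak score; it ranks peaks within a list and is not on the same scale in different lists. Rank 1 is the highest signal, and read depth is unknown from these lists.

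In flies, the TGF-alpha-like precursors encoded by spi (Spitz) and Krn (Keren) are membrane proteins that a Rhomboid protease cuts to release the active ligand, and Star, the product of S, carries the Spitz precursor out of the endoplasmic reticulum to meet it. The secreted neuregulin-like ligand Vein (vn) needs no such cut. Ligand-bound receptor signals through Ras and the MAP kinase cascade to Pointed (pnt), an Ets-domain activator, and among the genes switched on in many tissues are inhibitors that close feedback loops: Argos (aos), which sequesters Spitz outside the cell, Kekkon 1 (kek1), a transmembrane protein that binds the receptor, and Sprouty (sty), which acts inside the cell. In the embryo the pathway patterns the ventral ectoderm and acts in muscle, tracheal and glial precursors.

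The sequences under the strongest summits of the 6 members with a peak ranked within the first 1000, with 2 for aos, are shown because the account of each of these genes starts from them. Each is 101 bases of the RefSeq copy of the dm6 assembly centred on the summit, written 5′ to 3′ on the minus strand, which is the coding strand of all 6 genes. Capitals mark words from a list of 13 short motifs on either strand, here the TATA box word TATAAA, the word of GATA factors, GATAA, the word of the insulator protein BEAF-32, CGATA, and the word of GAGA factor, GAGAG.
spi, chr2L:19575744-19575844: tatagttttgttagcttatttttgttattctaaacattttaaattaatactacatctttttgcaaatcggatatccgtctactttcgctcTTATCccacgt
aos promoter, chr3L:16483850-16483950: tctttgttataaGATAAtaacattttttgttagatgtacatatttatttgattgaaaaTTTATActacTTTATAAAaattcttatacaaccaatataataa
aos intron, chr3L:16480541-16480641: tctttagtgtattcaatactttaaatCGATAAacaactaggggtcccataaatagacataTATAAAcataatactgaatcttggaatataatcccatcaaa
S, chr2L:1072332-1072432: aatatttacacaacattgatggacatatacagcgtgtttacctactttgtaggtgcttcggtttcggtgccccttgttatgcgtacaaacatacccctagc
vn, chr3L:5824199-5824299: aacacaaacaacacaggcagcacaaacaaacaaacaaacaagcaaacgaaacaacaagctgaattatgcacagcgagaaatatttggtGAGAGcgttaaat
pnt, chr3R:23326460-23326560: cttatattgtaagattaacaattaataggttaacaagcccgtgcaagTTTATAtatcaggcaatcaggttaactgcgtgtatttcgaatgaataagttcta
Krn, chr3L:17654365-17654465: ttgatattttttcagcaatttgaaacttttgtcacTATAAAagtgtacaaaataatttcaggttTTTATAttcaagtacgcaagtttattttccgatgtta
Their content of G and C ran from 15.8% at the aos promoter to 42.6% at S, beside a median of 32.7% over all thresholded summits. No listed word occurred in the window of S.

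Summits of the thresholded list lay in the regions of 9 of the 10 members, all except kek1. Over all protein-coding genes, 6502 of 13945 (46.6%) had one. Within 500 bp of a TSS of the gene, 4 members (spi, Krn, aos and pnt) had a summit, beside 27.0% of all protein-coding genes. The median was 4.5 summits per member and 0 per protein-coding gene. Region length moves with these counts: the median region was 23.5 kb for the members and 7.17 kb for all coding genes, and the share of coding genes with a summit was 40.2% for regions under 10 kb, 62.8% from 10 to 20 kb, 69.8% from 20 to 50 kb and 73.5% from 50 to 1000 kb. Per length, the members' regions held 1.77 summits per 10 kb and all coding regions 0.778. Egfr (0.705), vn (0.536) and kek1 (0) lay below that value, and the other members ran from 0.987 at rho to 6.17 at Krn. In the same bin of region length, 36.2% of coding genes had at least as many summits as Egfr, 49.0% as vn and 62.8% as rho. For the other members with a summit this share ran from 0.0191% at Krn to 17.4% at S and sty. Region length was not tested as a source of the difference.

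**Figure D1:**
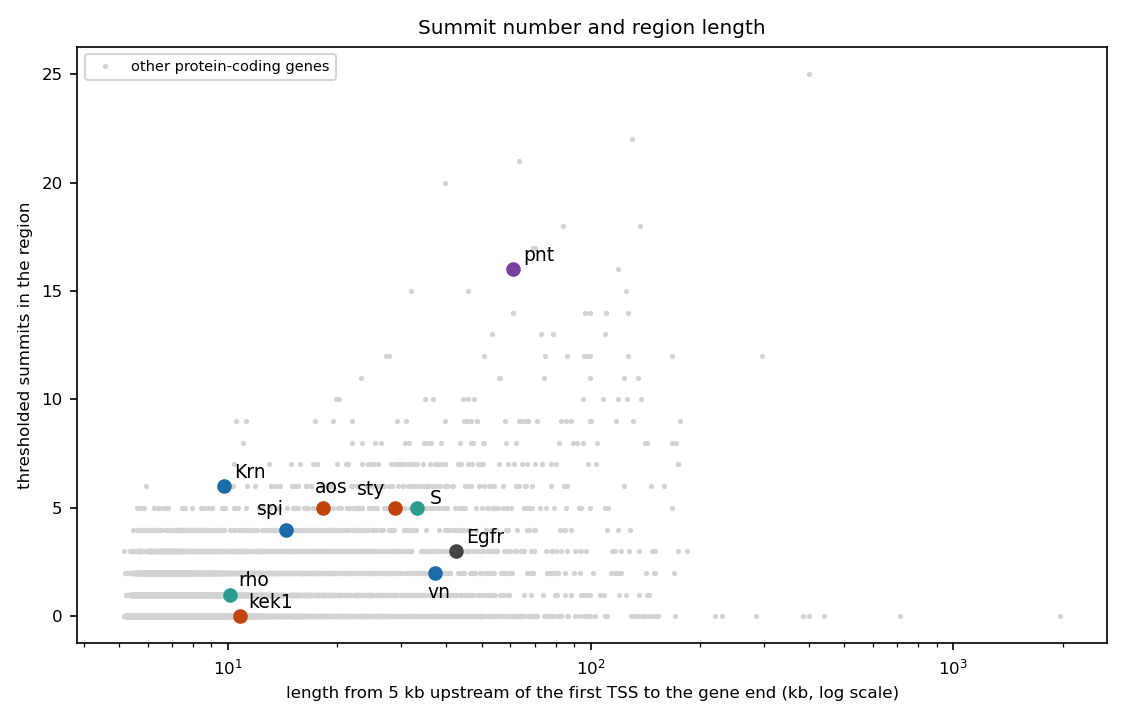
Summits of the thresholded list in a gene's region (vertical axis) against region length in kb (horizontal log axis) for protein-coding genes, 1 point a gene; large labelled points are the members (blue ligands, green ligand processing, dark grey receptor, orange-red inhibitors, purple transcription factor). pnt with 16 summits and Krn with 6 stand near the top for their length. kek1 has 0 and rho 1, beside a median of 1 for regions from 10 to 20 kb.

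**Figure D2:**
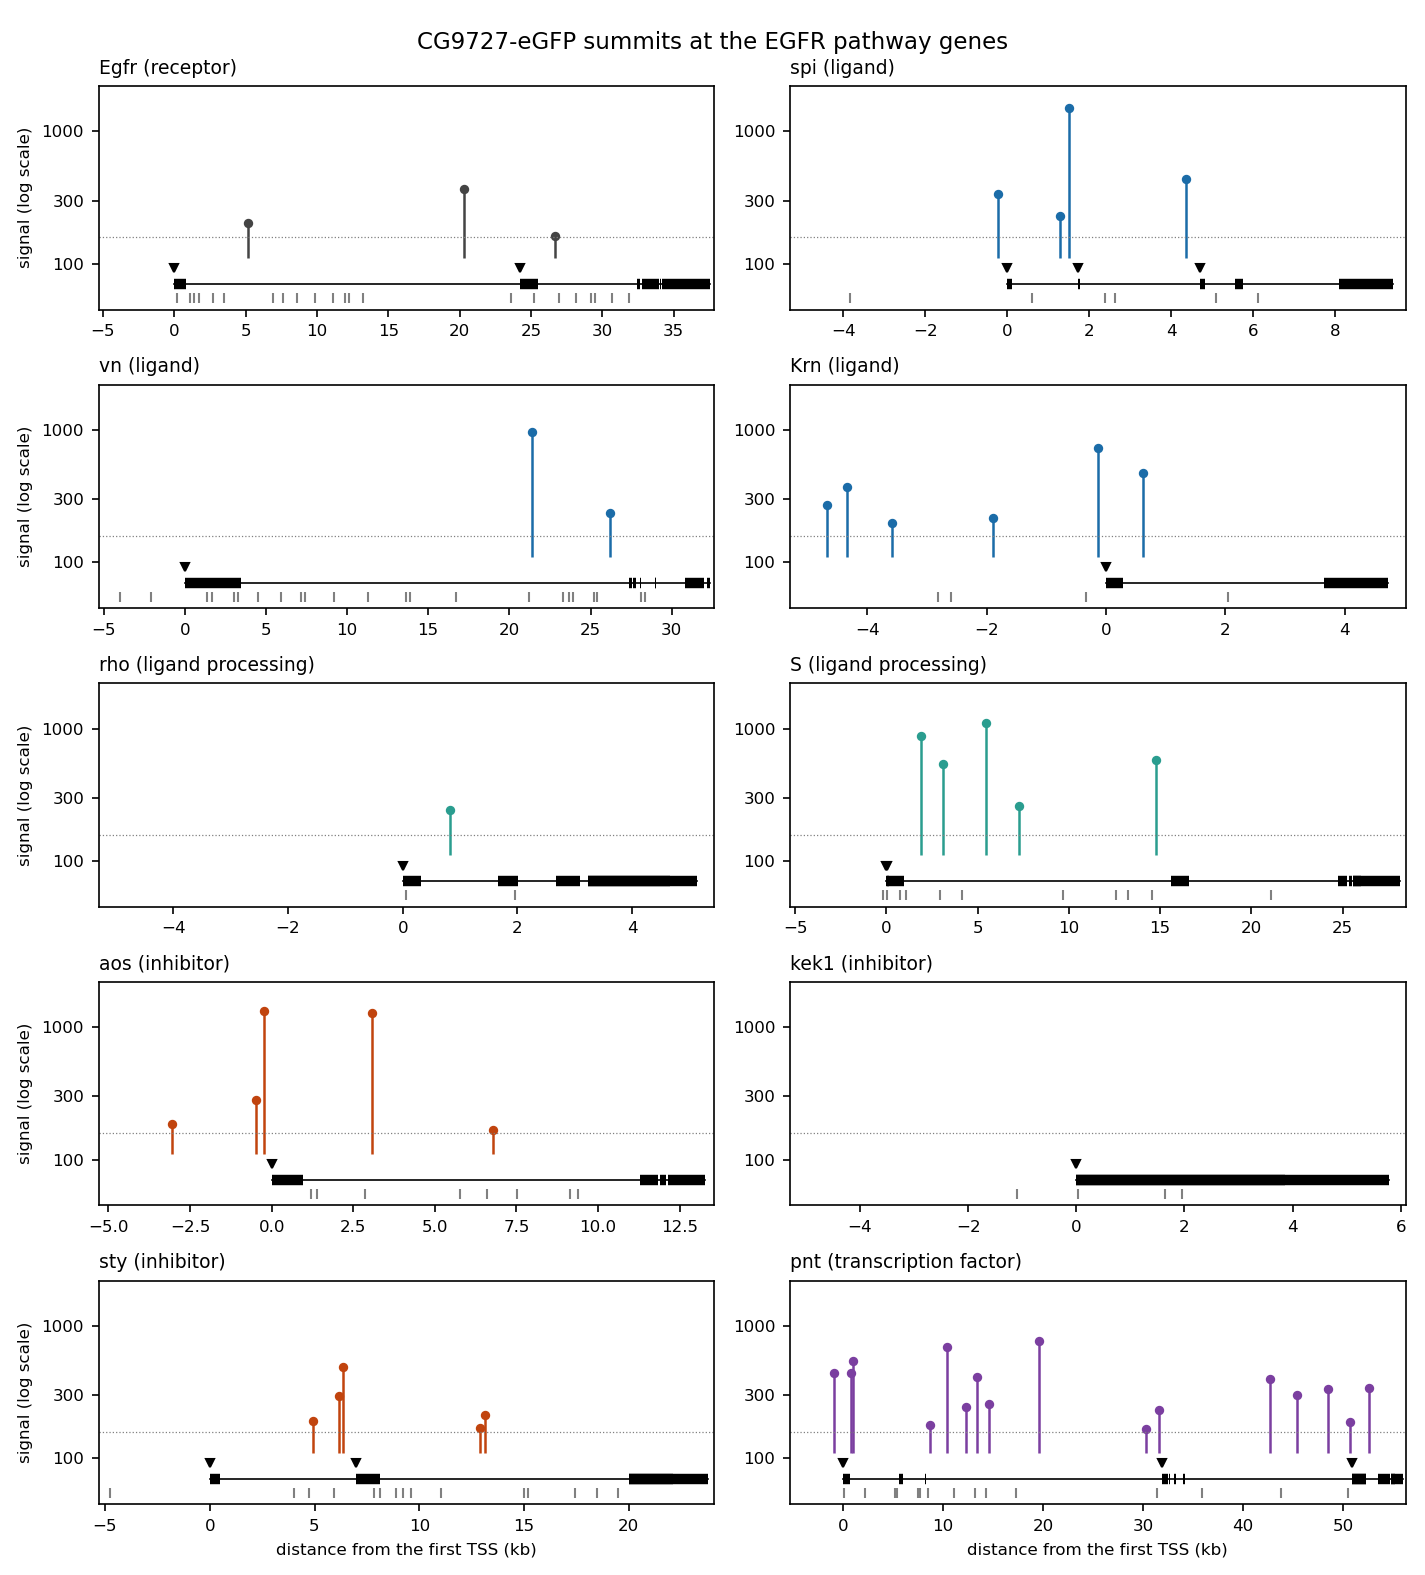
Thresholded summits along each member (horizontal axis, kb from the first TSS, positive into the gene), with stem height giving the signal on a log axis and colour the role named in each title. Black bars are exons of any transcript, triangles TSSs, grey ticks summits found only in the relaxed pooled list, and the dotted line the lowest signal of the thresholded list, 158. The tallest stems are at spi, aos and S, and kek1 has none.

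Of the ligand genes, spi held the strongest summit of all members. It lay at 2L 19575794, in the first intron and 207 bp upstream of the second of the 3 spi TSSs, in a peak from 19575562 to 19576154. Its ranks were 269, 148 and 176 in replicates 1, 2 and 3, a mean of 198 ± 63.3 (SD, n = 3), and its rank in the thresholded list was 196 with a signal of 1512. No other member summit had a stronger rank in the pooled list. The same peak interval carried another summit at 19576023, whose rank was 2671, 627 and 1845 in the replicates and 5125 in the thresholded list, a weaker place than in any replicate.

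Each of the 3 spi TSSs had a thresholded summit upstream of it and within 500 bp. Before the first TSS the summit stood at 19577545, 230 bp upstream, with ranks 3098, 4754 and 3461, and it lay closer to the TSS of msb1l, which is transcribed the other way and starts 156 bp from it. Before the third TSS the summit stood at 19572952, 342 bp upstream, with ranks 2055, 2029 and 2576. All 4 spi summits were recovered in every replicate, where recovered means that one of the 7896 strongest summits of that replicate lay within 100 bp. Only 24 bp outside the upstream limit stood another thresholded summit, ranked 3964 and 135 bp from the TSS of Hakai.

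The region of Krn was the densest, with 6 summits in 9.72 kb. Of the 10461 protein-coding genes with regions under 10 kb, Krn and CG42780 were the only 2 with as many, the latter named after its value was seen. The Krn region is close to that limit, and DPCoAC, just beyond it at 10.3 kb and named in the same way, also had 6. The strongest Krn summit, at 3L 17654415, was 135 bp upstream of the single TSS, with ranks of 1211, 987 and 751 in replicates 1, 2 and 3 (mean 983 ± 230, SD, n = 3). Krn shares that TSS position with the overlapping gene Ndfip. On the other side of the summit, CG7484 starts at 17654617 on the opposite strand, so the summit cannot be given to any one of these genes. A summit in the first intron, 621 bp downstream of the TSS and also inside Ndfip, ranked 1438, 2667 and 2258.

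The other 4 Krn summits lay 1899 to 4676 bp upstream, beyond the 3′ end of CG7484, a gene that diverges from Krn and has the nearest TSS to all 4. Their ranks in the thresholded list ran from 2718 to 6138. All 6 Krn summits were recovered in all 3 replicates.

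At vn there was no thresholded summit near the promoter. The single strong summit in its region, at 3L 5824249, lay in the first intron, which is 23921 bp long, 21415 bp downstream of the TSS. It ranked 445, 643 and 630 in replicates 1, 2 and 3 (mean 573 ± 111, SD, n = 3). A weaker one at 5819474, further into the gene, ranked 7511, 3026 and 6863. Both were recovered in all replicates, and the region holds no other annotated gene. The TSS nearest to each was that of mad2, 11156 and 6381 bp away. Outside the region, 11419 bp upstream of the vn TSS, stood a thresholded summit ranked 1178, with vn as its nearest TSS.

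Of the genes that process the ligands, S held 5 summits, all in its first intron of 15438 bp and all recovered in every replicate. The strongest, at 2L 1072382, was 5429 bp from the nearer of 2 S TSSs, which lie almost together, and ranked 323, 482 and 485 (mean 430 ± 92.7, SD, n = 3). The next, 1860 bp from the TSS, ranked 564, 698 and 724. Every replicate put these in the same order.

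The remaining S summits were 3107, 14761 and 7243 bp from the TSS, with thresholded ranks of 1579, 1422 and 4350. The S promoter itself, which faces that of ast, had no summit in the thresholded list. In the relaxed pooled list a summit 35 bp into S ranked 10802. It was matched at rank 6756 in replicate 2 and 11096 in replicate 3, and had no match in replicate 1. Another, 172 bp upstream of the TSS, ranked 14038. That one was matched at rank 8164 in replicate 1 and 10845 in replicate 2, and had no match in replicate 3.

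rho, which encodes the founding Rhomboid protease and whose transcription is thought to set where Spitz is released, had 1 thresholded summit. It stood at 3L 1464628, in the first intron of rho, 817 bp downstream of the TSS, and also inside an intron of Ptp61F, which spans rho on the other strand. It ranked 3891, 4634 and 6331 in replicates 1, 2 and 3 and 4768 in the thresholded list. In replicate 2 alone, a summit 28 bp from the rho TSS was among the strongest 7896, at rank 7535.

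At Egfr, the receptor gene on 2R from 21522420 to 21559977, 3 thresholded summits lay in the first intron of 31587 bp and none within 500 bp of either TSS. The strongest, at 21542744, was 3899 bp upstream of the second TSS and ranked 2646 in replicate 1 and 3029 in replicate 3, but 16673 in replicate 2. In replicate 2 another summit 132 bp away, outside the matching distance, ranked 3481. Each replicate thus had a summit ranked from 2646 to 3481 at or within 132 bp of the site.

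The other Egfr summits, 5133 bp after the first and 2470 bp after the second TSS, ranked 5988 and 7768 in the thresholded list. The second of them had no summit within 100 bp in replicate 2. That intron also holds 4 protein-coding genes and 1 non-coding gene, and for the strongest Egfr summit the nearest TSS was that of CG30283, 2171 bp away. Beside its 3 thresholded summits Egfr had 29, 19 and 23 in the relaxed lists (mean 23.7 ± 5.03, SD, n = 3). At vn the mean was 19 beside 2 thresholded summits. Each whole relaxed list holds 30000 peaks beside 7896 in the thresholded list.

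The inhibitor genes ran from aos, with a summit at rank 268, to kek1, with none in the thresholded list. aos had 2 of the strongest sites of any member. The promoter summit, at 3L 16483900 and 250 bp upstream of the only TSS, ranked 214, 273 and 352 (mean 280 ± 69.2, SD, n = 3), and the intronic summit at 16480591, in the first intron and 3059 bp downstream of the TSS, ranked 266, 296 and 315 (mean 292 ± 24.7, SD, n = 3). Their signals in the thresholded list were 1325 and 1270, and their ranks overlapped between replicates, so neither was separated from the other.

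A further aos summit 472 bp upstream of the TSS, in nearly the same interval as the promoter peak, was matched in replicate 1 only, at rank 2042. The remaining aos summits, 3043 bp upstream of the TSS and, in the first intron, 6794 bp downstream of it, ranked 6549 and 7510. All 5 lie within CG33158, a long gene on the other strand that contains the whole aos region, though the nearest TSS to each is that of aos. A summit ranked 5797 stood 285 bp outside the upstream limit.

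sty had 5 thresholded summits, all in its first intron of 19503 bp. The strongest, at 3L 3418585, was 624 bp upstream of the internal TSS and ranked 2304, 3194 and 1366. A neighbour 829 bp upstream of the same TSS ranked 5536 in replicate 1 and 2627 in replicate 3, with no match in replicate 2. There, a summit ranked 3531 lay 111 bp from the neighbour, outside the matching distance. Of the 5, only the strongest was recovered in all 3 replicates. The pair at 3412030 and 3411823 lay 157 and 364 bp from the annotated start of a small RNA inside mir-2282, a microRNA gene in that intron, and ranked 7333 and 5607. The remaining one, 2050 bp upstream of the internal TSS, ranked 6356. Outside the region, 7928 bp upstream of the first sty TSS, stood a thresholded summit ranked 1408, with sty as its nearest TSS. The strongest inside the region ranked 1828 in that list.

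kek1 had no thresholded summit in its region of 10.8 kb. The nearest such summits stood 151678 bp upstream of its TSS and 66752 bp beyond its end. Its strongest relaxed summit, 1099 bp upstream of the TSS, ranked 8294 in the pooled list and 11600, 5951 and 9521 in replicates 1, 2 and 3, so that replicate 2 alone had it among its 7896 strongest. A relaxed summit 24 bp from the TSS ranked 13210 and was matched in replicates 1 and 3.

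pnt, the Ets transcription factor gene at 3R 23290231 to 23346167, had 16 thresholded summits in a region of 60.9 kb. Of all protein-coding genes, 10 had as many or more, pnt included, and 9 of these were among the 374 with regions from 50 to 1000 kb. Its 3 TSSs start transcripts of different length; the long and the short forms share the Ets domain. In the replicates pnt had 32, 33 and 32 relaxed summits (mean 32.3 ± 0.577, SD, n = 3).

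The 2 strongest pnt summits lay deep in the third intron, which is 24337 bp long. That at 23326510, 12195 bp upstream of the second TSS, ranked 940, 802 and 859 in replicates 1, 2 and 3 (mean 867 ± 69.3, SD, n = 3). That at 23335782 ranked 1164, 850 and 950 (mean 988 ± 160, SD, n = 3). Their ranks overlapped between replicates. The nearest TSS to both was that of lncRNA:CR46090, a non-coding gene inside the intron, and a weaker pnt summit, ranked 4755, stood 39 bp from it.

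Around the first pnt TSS there were 3 summits, 896 bp upstream and 802 and 1004 bp downstream, with thresholded ranks of 2170, 2174 and 1554, and none within 500 bp. The second TSS and the third TSS each had one close upstream, at 229 and 248 bp, of ranks 5090 and 6506. Of the 16 pnt summits, 13 were recovered in all 3 replicates.

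**Figure D3:**
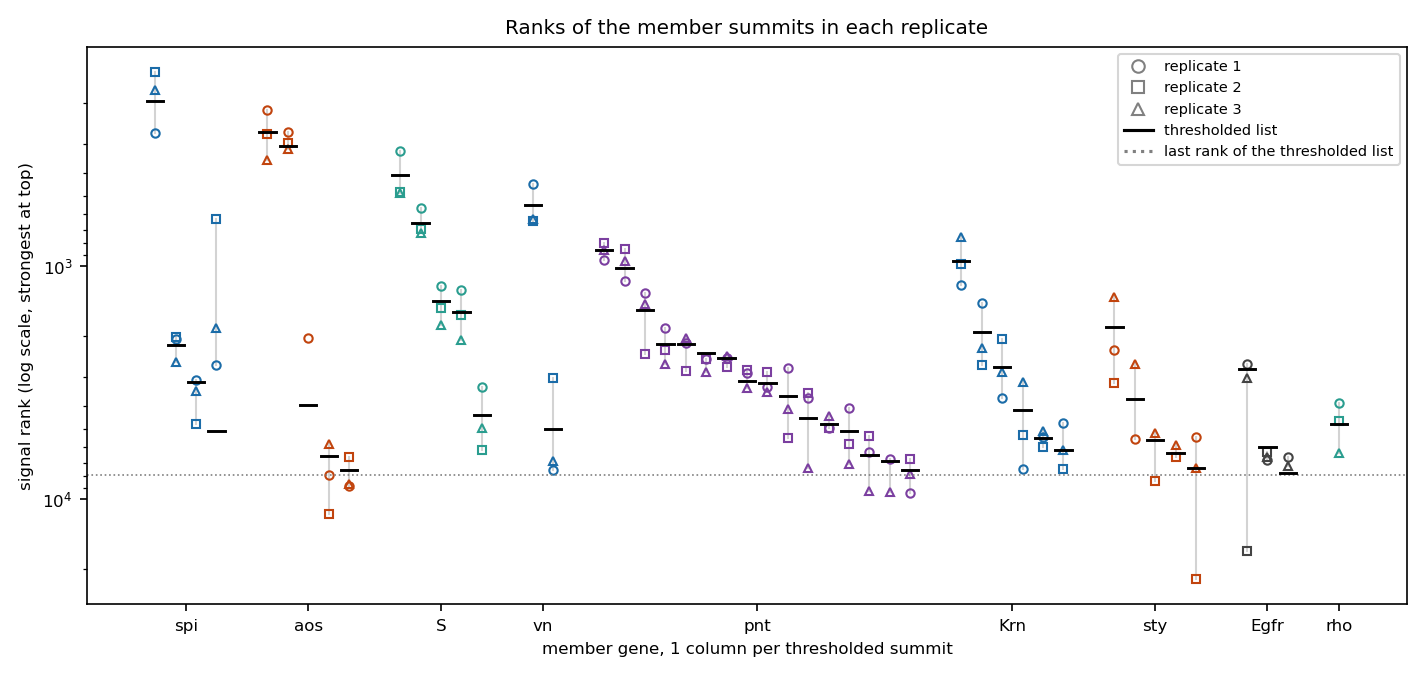
Signal rank (vertical log axis, strongest at top) of every thresholded member summit, 1 column a summit, genes ordered by their strongest and coloured by role as in the plot of region length; open symbols are the matched summits of replicates 1, 2 and 3 (within 100 bp, where there is one) and black bars the thresholded list. The leading summits of spi, aos, S and vn sit between ranks 148 and 643 in every replicate, while summits of Egfr and sty reach ranks of 16673 and 22001 in replicate 2.

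The order of the members by their strongest summit was nearly the same in each replicate. In the pooled list it ran spi (196), aos (268), S (408), vn (550), pnt (859), Krn (958), sty (1828), Egfr (2761), rho (4768) and kek1 (8294). Replicate 1 put aos (214) before spi (269), and replicate 3 put Krn (751) before pnt (859). Neighbours whose ranks overlapped between replicates were spi and aos, S and vn, pnt and Krn, sty and Egfr, and rho and kek1. S ranked 323, 482 and 485 and vn 445, 643 and 630, so these ranges cross, although S came before vn, sty before Egfr and rho before kek1 within every replicate.

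**Figure D4:**
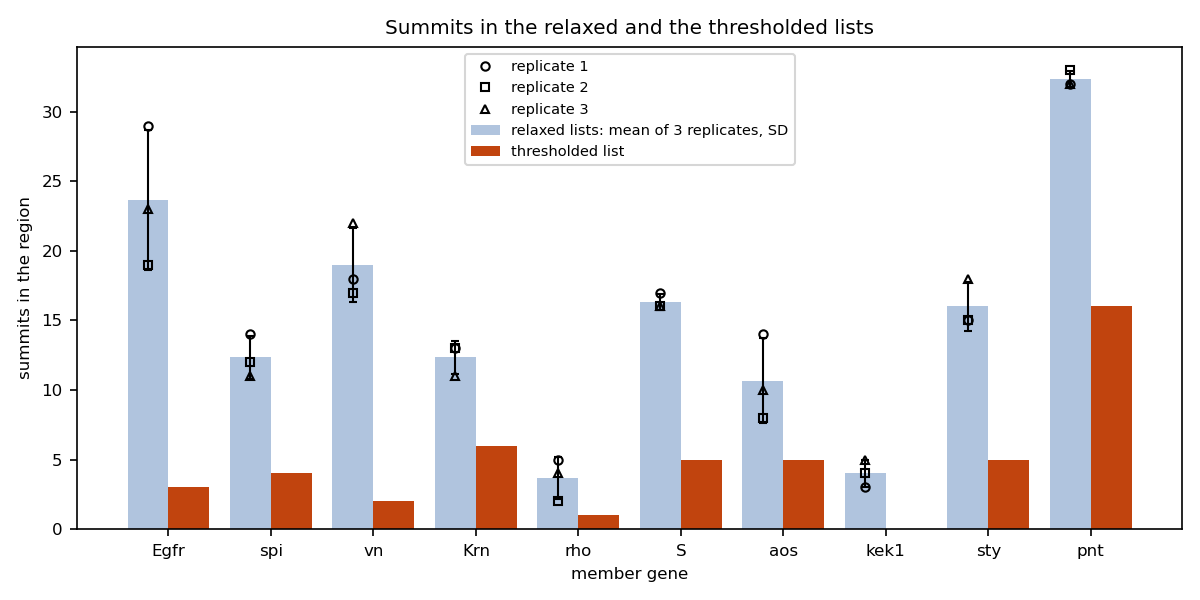
Number of summits in each member's region: pale bars give the mean of the 3 relaxed replicate lists with SD, open symbols each replicate, and red bars the thresholded list. Egfr and vn have mean relaxed counts of 23.7 and 19 but 3 and 2 thresholded summits, whereas Krn keeps 6 beside a mean of 12.3.

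The places of the 47 summits were as follows. None lay in an exon of any annotated gene, beside 1040 of all 7896 thresholded summits (13.2%). In all, 37 lay in an intron of the member and 10 upstream of it, and 25 of the intronic ones lay in the first intron of at least one transcript. Within 500 bp of a TSS of the member there were 9, each upstream of that TSS, and 17 lay over 5 kb from any TSS of it. These counts of places within the member genes, apart from exons, have no counterpart over the whole list here.

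Measured against every annotated TSS, the member summits were further away than the list as a whole. Within 500 bp of any TSS lay 25.5% of them and 44.9% of all thresholded summits, and over 2 kb from any TSS lay 46.8% and 33.0%. The nearest TSS was the member's own for 30 summits and another gene's for 17. Intron length was not compared between the member summits and the list, and its part in these shares was not tested.

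Of the 47 summits, 35 (74.5%) were recovered in all 3 replicates, 8 in 2 and 4 in 1, with 62.5% of all thresholded summits recovered in all 3. By replicate, 43, 39 and 43 were recovered. Replicate 2 was the lowest for the members, as for the whole list. The median rank was 3175 for the member summits and 3948.5 for the list, where a lower rank is stronger. The signal of the last member summit inside the threshold, at Egfr, was 161, and that of the first outside it, in the third intron of pnt, was 158 at rank 7914.

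The 13 short motifs were searched on both strands within 50 bp of each summit, as a description of the letters there. TATAAA was found at 12 of the 47 member summits (25.5%, and 22.2% of all thresholded summits), GATAA at 13 (27.7% and 25.1%) and CGATA, the core of the BEAF-32 word, at 6 (12.8% and 14.8%). GAGAG, the word of GAGA factor, was at 9 (19.1% and 10.4%). The BEAF-32 and GATA words can overlap, as they do in the aos intron sequence shown above.

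Words of the pathway's own transcription factors were each at 2 member summits or fewer, and they were rare over the whole list too. Capicua, a repressor that MAP kinase signalling relieves, is known to bind TGAATGAA, which was at 2 member summits (4.26%, and 0.950% of all), the aos summit 472 bp upstream of the TSS and the pnt summit 1004 bp into the gene. Of the Ets words, CCGGAA was at 0 member summits (1.79% of all) and AGGAAG at 2, 1 at Egfr and 1 at S (4.26% and 2.70% of all). TGAATGGA, another Capicua word, was at 0 (0.393% of all). GTGGGAA, the word of the Notch pathway factor Su(H), was at 1, at pnt (2.13% and 0.798% of all). TAATTA, a homeodomain word, was at 2 (4.26% and 9.85%), and CAGGTA, the word of Zelda, at 1, at Egfr (2.13% and 2.05% of all). The words TATCGATA (DRE) and GGTCACAC (Motif 1), common at promoters of widely expressed fly genes, were at 0 and 0, with 1.75% and 1.05% of all thresholded summits.

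A list of 33 further names of the pathway, covering other ligands and Rhomboids, the Ras and MAP kinase cascade, transcription factors and inhibitors, gave 32 genes, since Gap1 is an older name of RasGAP1. Of the 32, 23 had a thresholded summit in their region (71.9%) and 14 within 500 bp of a TSS (43.8%). They held 106 summits, or 1.06 per 10 kb. Both shares were above those of all coding genes, whose regions are shorter, with a median of 7.17 kb beside 20.2 kb.

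The strongest of these summits was in the region of Shc, an adaptor gene, at rank 35, but it lay 214 bp from the TSS of aay and 3971 bp from that of Shc. That of cnk, a scaffold gene of the Raf cascade, at rank 60, lay 289 bp from the TSS of l(2)k01209. RasGAP1, which encodes a Ras GTPase-activating protein, had one at rank 96, 636 bp upstream of its own TSS. edl, whose product binds Pointed and Yan, had 8 summits, the strongest at rank 212 and 217 bp upstream of its TSS. gro, the gene of the corepressor Groucho, had one at rank 283, 132 bp upstream of a TSS. Each was recovered in all 3 replicates. The ligand gene grk, the MAP kinase gene rl and the exchange factor gene Sos were among the 9 with none.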

How the data were processed

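Peak lists of 3 replicates were used on dm6; lists on dm3 were not used here. Per the file lists deposited by the authors, each relaxed list was made from a replicate's alignment and 1 control file, the pooled list from all 3 alignments, and the IDR list from those 4. The aligner, peak caller and IDR threshold are not stated there or in the labels. Each deposited peak has the authors' signal and a −log10 q value; these lists give no depth. The median thresholded peak was 504 bp wide.

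Positions count from 1. Genes came from Ensembl release 115 (18164 genes), where all 10 members matched RefSeq positions. Counting used Python 3.11.15, numpy 2.4.6 and pandas 2.3.3 and was tested on simulated data. Ranks are by signal. Every member and each of its thresholded summits was described, and of the further genes the 5 with the strongest summit. Members, gene lists and motifs were chosen with earlier results of these data known. Alternatives changed the flank, TSS window, matching distance, list, ranking and gene assignment. Each replicate was left out of the recovery count only, with the thresholded list unchanged.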

Additional observations from a re-analysis of the deposited data

How the results depend on the processing

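Members with a summit near a TSS fell from 4 to 1 (Krn) with a window of 200 bp. The 47 summits became 26 in the stronger 3948 peaks and 30 when a summit counted only for the gene of its nearest TSS. Summits recovered in all 3 replicates fell from 35 to 21 at 50 bp. Each of these moves was over 1.5 times. Giving summits to the coding gene of the nearest TSS only, an alternative chosen after seeing the data, left 39 summits. Without each replicate in turn, summits recovered in both others numbered 36 to 40, over 9 members, 4 of them near a TSS. The thresholded list itself still came from all 3 replicates, so these counts could not fall below the 35 recovered in all 3. Other settings gave 8 to 10 members, 37 to 54 summits, 3 to 6 members near a TSS and 35 to 41 recovered summits. No paired analysis was possible because there is 1 group. Unknown depth limits what a missing weak peak says.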
